A study of Mus musculus with 2 samples.

Results

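The 9 genes described here, Foxp3, Ikzf2, Ikzf4, Ebi3, Nrp1, Lrrc32, Entpd1, Nt5e and Gpr83, are core genes of regulatory T cells. They were compared between Lamtor1-deficient (KO) and wild-type (WT) mouse CD4+ T cells. Every array probe whose name in the scanner files, or a synonym of it, was one of these genes was taken: 12 of 39429 probes, for 9 of 31709 named genes. All 12 probes and all 9 genes were measured, that is, the probe stood well above background on each array for KO RNA, for WT RNA or for both, as were 18575 probes and 14884 genes in all. One further probe bore the name Nrp, a synonym of Nrp1, but its accession belongs to another gene, on chromosome 12 at 88784806 to 88784865 (mm9), and it was not counted as a member.

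Regulatory T cells restrain other immune cells and keep autoimmunity in check. Their identity rests on the transcription factor Foxp3, which works with partner factors, among them the Ikaros relatives Helios (Ikzf2) and Eos (Ikzf4). The cells act through secreted cytokines, through latent TGFβ held at the surface by GARP (Lrrc32), and through CD39 (Entpd1) and CD73 (Nt5e), enzymes that turn extracellular ATP into adenosine. TGFβ together with IL-2 and stimulation of the T cell receptor induces Foxp3 in naive CD4+ T cells.

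The KO extract came from Lamtor1-deficient and the WT extract from wild-type C57BL/6J mice; the sources used here do not say how, or in which cells, Lamtor1 was deleted. Lamtor1 is a subunit of Ragulator, the lysosomal anchor of the kinase complex mTORC1. In both groups naive CD4+CD62L+ T cells from spleen were stimulated for 5 days with antibodies to CD3 and CD28 with rhTGFβ (recombinant human TGFβ, 1 ng/ml) and IL-2 (50 ng/ml); the extraction protocol speaks of naive cells, and the RNA was taken here to be that of the cultured cells. There was 1 RNA extract per genotype, hybridised on 2 arrays with the dyes Cy5 and Cy3 exchanged, so no test was possible, each SD below is a technical one over the 2 arrays, and no value has a check against biological replicates.

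The stretches below are the first 30 of the 60 bases of each probe for the genes called higher or lower and identify what was measured; all letters are in lower case, 5′ to 3′, and the base is the transcript position at which the probe starts. Whether a probe lies in coding sequence or in a UTR was not determined, since no annotation of build mm9 was used here.
Foxp3: attatgtgttggagtgtgcctgaacagctc
Ikzf2, base 3137: tacctgaataacatagtgcaggtcaaacaa
Ikzf2, base 9292: ctcaggaacaagcatataatttgtccaaga
Ikzf4, base 1860: tttgagtgtaacatctgtggttatcacagc
Ikzf4, base 3387: ttcgtgagaccatgcaggaggaggcatagc
Ikzf4, base 3470: ccatcccactctctgcttctttgagattca
Ebi3: agcactggataattcacttgacttcttcag
Nrp1: ttgtggatggtgtaaagttgaaaaaagata

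Lamtor1 was 3.86-fold lower in the KO extract, with a log2 ratio KO over WT of −1.95 ± 0.03 (−1.97 with KO in Cy5, −1.93 with KO in Cy3). Its probe lies on chromosome 7 at 109060334 to 109060393 (mm9). The deleted part of the gene is unknown here, so whether the probe lies within it was not determined, and the value is no full check of the labels. The 44397 spots of each array included none that was saturated. Of the non-control spots, 51.7% (KO in Cy5) and 43.7% (KO in Cy3) were well above background for KO RNA, and 48.4% and 48.8% for WT RNA on the same arrays. The arrays' log2 ratios correlated across genes, which are not independent replicates, with Pearson r = 0.939 and Spearman rho = 0.880, and the technical SD had a median of 0.11 over genes.

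Foxp3, Ikzf2, Ikzf4 and Nrp1 were higher in the KO extract, Ebi3 was lower, and Lrrc32, Gpr83, Entpd1 and Nt5e were called neither. A gene was called higher or lower when its brightest measured probe was at least 2-fold apart, the same way, on each array. By that rule 4 of 9 genes (44.4%) were higher, against 2.46% of all measured genes, and 1 of 9 (11.1%) was lower, against 6.88%. The 9 genes were chosen with earlier results of these data known, so these shares describe them and test nothing. The median log2 ratio of all measured genes was −0.02. With the dyes balanced by centring each array on the median of its spots in place of loess, none of the 4 higher calls held (0 of 4), and the lower call of Ebi3 did. That setting put the median of the measured genes at 0.15 where KO was in Cy5 and at −0.97 where KO was in Cy3. With the median of the measured genes as the centre, an alternative chosen after seeing the data, 4 genes were higher and 1 lower again. Over all measured genes, 366 were higher and 1024 lower (26.3% of calls higher), against 111 and 881 (11.2%) with centring on all spots. In the same extracts, CD4 T cell markers had a median log2 ratio of −0.79. The pooled markers of CD8 T, NK and γδ T cells had one of 1.25. It was 0.71 over those well above background in both RNAs and 0.75 with no filter on dim probes. With the scanner software's processed signals it was 2.18, and with a background offset of 1 it was 2.03. Of these markers, Cd8a, Cd8b1, Eomes and Sox13 were called neither in the main processing, at 0.67, −0.55, 0.75 and 0.02. The part of both lists in the values of the 9 genes was not tested. In a bulk extract, fewer cells of a type and less RNA per cell cannot be told apart.

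**Figure D1:**
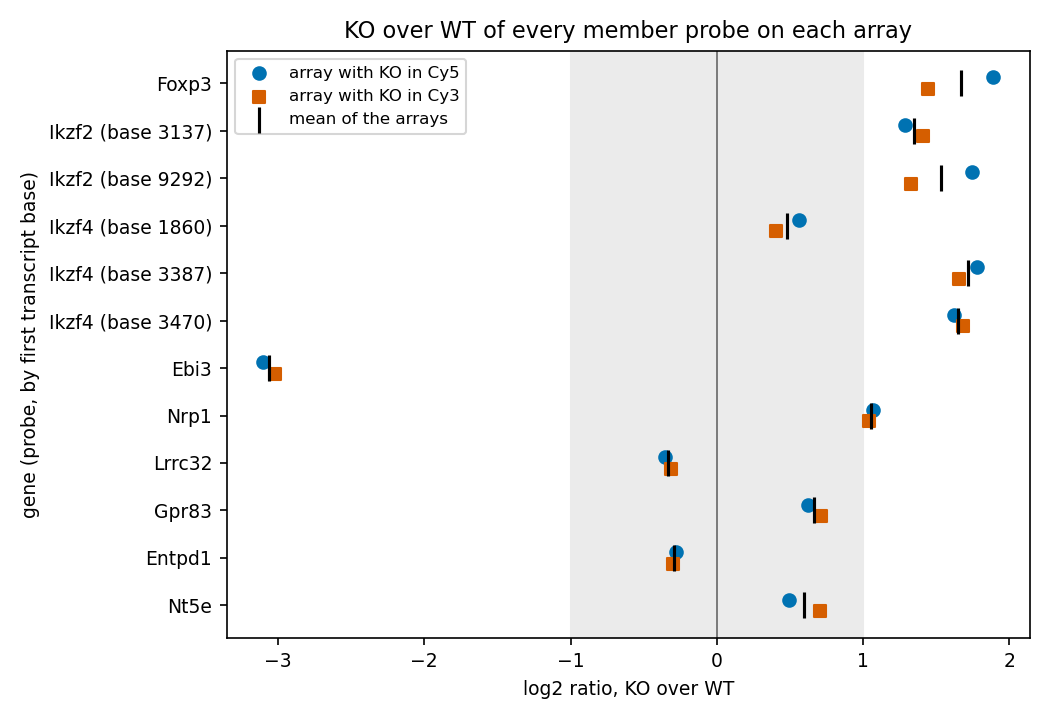
The log2 ratio KO over WT (horizontal axis) of all 12 probes (vertical axis, with the first transcript base where a gene has several), on the array with KO in Cy5 (circles), on the array with KO in Cy3 (squares) and as their mean (bars); the grey band marks less than 2-fold. Foxp3, both Ikzf2 probes, 2 of 3 Ikzf4 probes and Nrp1 lie right of the band on both arrays, and Ebi3 lies left of it.

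Foxp3, the transcription factor that defines regulatory T cells, was 3.18-fold higher in the KO extract. Its probe (chromosome X, 7172301 to 7172360, mm9) had a normalized log2 intensity of 12.21 in KO and 10.32 in WT with KO in Cy5, and of 11.94 in KO and 10.50 in WT with KO in Cy3. The KO value lay above the WT value on both arrays. The log2 ratios were 1.89 and 1.45, with a mean of 1.67 ± 0.31, which ranked 136 from the highest among the 14884 measured genes. Before any normalization the mean signals were 5399 in KO and 1144 in WT with KO in Cy5, but 2141 in KO and 2561 in WT with KO in Cy3. The raw signals therefore had opposite orders on the arrays, and the direction on the array with KO in Cy3 depended on the dye normalization. With centring on all spots the ratios were 2.07 and 0.10, with a mean of 1.09. With centring on the measured genes they were 1.92 and 1.07.

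Ikzf4, which encodes Eos, a corepressor partner of Foxp3, had the highest ratio of the 9 genes in this processing. Its brightest probe (base 3387; chromosome 10, 128069604 to 128069663) read 12.25 in KO and 10.47 in WT with KO in Cy5, and 12.17 in KO and 10.51 in WT with KO in Cy3. The log2 ratio was 1.72 ± 0.08 (3.29-fold; 1.78 and 1.66). As for Foxp3, the raw signals had opposite orders, with 5536 in KO and 1266 in WT with KO in Cy5 but 2502 in KO and 2616 in WT with KO in Cy3. A second probe, starting 83 bases further on, gave 1.65 ± 0.04 (1.62 and 1.68); the technical SDs of these neighbouring probes overlapped. The third probe (base 1860), 1527 bases before the brightest, was dim, with mean signals of 129 in KO and 79.3 in WT with KO in Cy5 and of 104 in KO and 114 in WT with KO in Cy3. It gave 0.48 ± 0.11 (0.56 and 0.41), above 0 on both arrays but short of 2-fold. The signals of different probes cannot be set against each other, and the ratio of this probe moved with the processing: it was 0.89 with an offset of 1, still short of the rule, and 1.22, past it, with the scanner software's processed signals, which differ in background and dye handling.

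Ikzf2, which encodes Helios, a factor of most thymus-derived regulatory T cells, was higher on both of its probes. The brighter one (base 9292; chromosome 1, 69577853 to 69577912) read 9.70 in KO and 7.96 in WT with KO in Cy5, and 9.43 in KO and 8.10 in WT with KO in Cy3. Its log2 ratio was 1.54 ± 0.29 (2.90-fold; 1.74 and 1.33). The raw signals were 918 in KO and 217 in WT with KO in Cy5, and were nearly level, at 420 in KO and 422 in WT, with KO in Cy3. The other probe lies 6155 bases nearer to the start of the transcript (base 3137; 69584008 to 69584067) and gave 1.35 ± 0.09 (2.55-fold; 1.29 and 1.41). On that probe the raw signal was higher in KO on both arrays, at 371 in KO and 124 in WT with KO in Cy5 and at 254 in KO and 188 in WT with KO in Cy3. The remaining Ikaros family genes stayed within 2-fold: Ikzf1 (Ikaros) stood at −0.12, Ikzf3 (Aiolos) at 0.21 and Ikzf5 (Pegasus) at 0.26. All 3 were measured and none was called, and their median was 0.21.

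**Figure D2:**
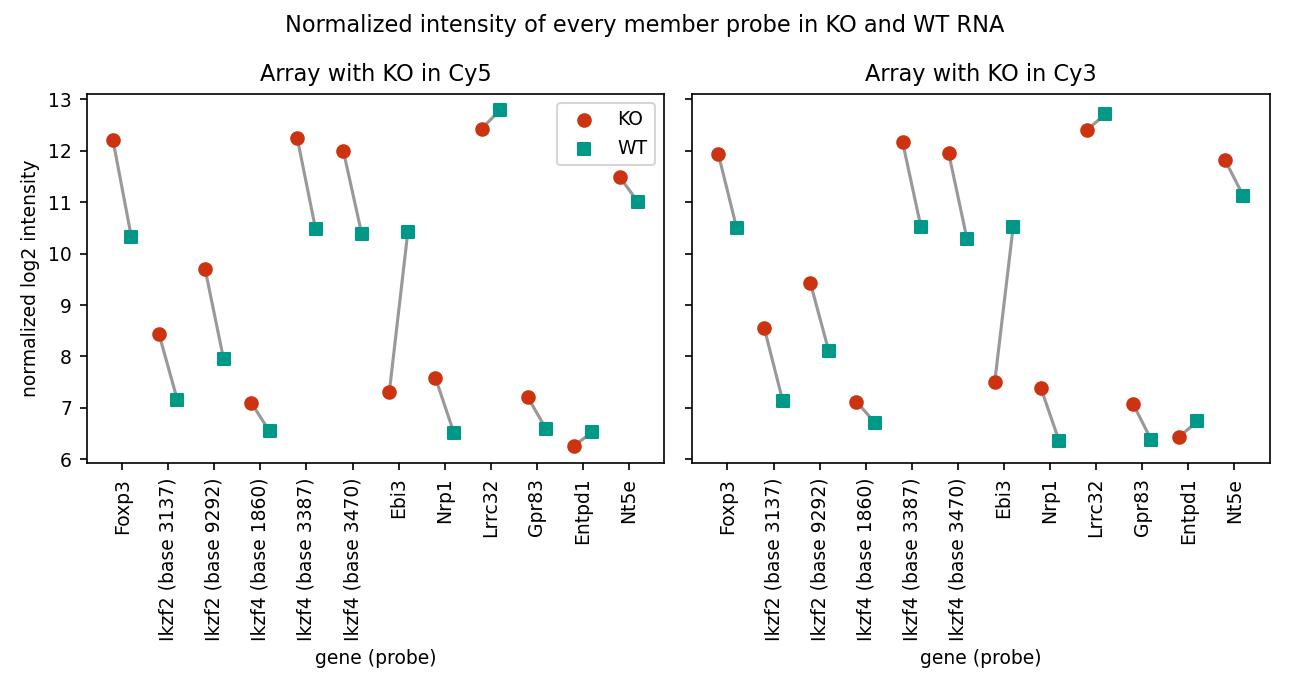
Normalized log2 intensity (vertical axis) of each probe (horizontal axis) in KO RNA (circles) and WT RNA (squares) on the array with KO in Cy5 (left) and with KO in Cy3 (right). The pair of a probe can be compared, while heights of different probes cannot; Foxp3 reads 12.21 in KO and 10.32 in WT on the left, and Ebi3 7.32 in KO and 10.42 in WT.

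Ebi3 encodes a secreted cytokine subunit that pairs with p28 (Il27) to form IL-27 and with p35 (Il12a) to form IL-35, a cytokine of regulatory T cells. It was 8.33-fold lower in the KO extract and ranked 12 from the lowest among the 14884 measured genes. Its probe (chromosome 17, 56096309 to 56096368) read 7.32 in KO and 10.42 in WT with KO in Cy5, and 7.50 in KO and 10.51 in WT with KO in Cy3. The log2 ratio was −3.06 ± 0.06 (−3.10 and −3.02), and even in KO RNA the probe remained well above background on each array. The raw signals had the same order on both arrays, with 158 in KO and 1214 in WT with KO in Cy5 and with 98.6 in KO and 2367 in WT with KO in Cy3. No other gene of the 9 was called lower in this processing, and Ebi3 was called lower in every setting tried, at ratios between −3.86 and −3.02. Il12a was not well above background, and Il27 stood at 0.04. Of the other genes of the interleukin-12 family and its receptors, 5 of 9 were measured, 0 were higher and 1 was lower, with a median of 0.02. The lower one was Il12rb1, a receptor chain for IL-12 and IL-23, at −1.14, and the median over its probes, −0.85, was short of the rule.

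Nrp1, neuropilin 1, is a receptor for semaphorins and for vascular endothelial growth factor that marks many thymus-derived regulatory T cells in mice. It was 2.08-fold higher in the KO extract, just past the rule, with a log2 ratio of 1.05 ± 0.02 (1.07 and 1.04). The probe (chromosome 8, 131026650 to 131026709) was dim, with mean signals of 190 in KO and 77.5 in WT with KO in Cy5, and of 128 in KO and 83.3 in WT with KO in Cy3. The KO signal was the higher one on both arrays before normalization. The ratio moved with the processing: it was 1.83 with an offset of 1 and 2.46 with the scanner software's processed signals. Of 12 genes for neuropilin ligands and co-receptors, Nrp1 left out, 6 were measured, 0 were higher and 2 were lower, with a median of −0.02. The lower ones were Vegfa, the growth factor itself, at −1.53 and Sema4a, a semaphorin, at −1.36. Nrp2, neuropilin 2, stood at 0.66 and ranged from 0.63 to 1.79 over the settings tried. With the processed signals 1 gene of this list, Nrp2, was higher, and the list median was −0.52. An offset of 1 also gave 1 higher.

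Lrrc32 encodes GARP, which tethers latent TGFβ to the surface of activated regulatory T cells. Its probe (chromosome 7, 105650282 to 105650341) read 12.43 in KO and 12.79 in WT with KO in Cy5, and 12.40 in KO and 12.71 in WT with KO in Cy3. The log2 ratio of −0.33 ± 0.03 (−0.36 and −0.31) was short of the rule, and it was −0.94 with centring on all spots. The raw signals had opposite orders. They were 6505 in KO and 6327 in WT with KO in Cy5 but 2778 in KO and 12184 in WT with KO in Cy3. The probe lies 3.41 Mb from that of Lamtor1. Of 13 other genes of latent TGFβ presentation, 8 were measured, 2 were higher and 0 lower, with a median of −0.14. The higher ones were Tgfb3, which encodes a TGFβ isoform, at 1.77 and Furin, a protease that processes the TGFβ precursor, at 1.38. Ltbp2, of the same list, counted as measured through WT RNA alone. With both RNAs required to be well above background, 6 were measured, 2 were higher and the median was 0.03. Tgfb1 stood at −0.12 and Nrros, a relative of Lrrc32 that also tethers latent TGFβ, at 0.18, while Itgb8, an integrin chain that helps release TGFβ, was not well above background.

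Gpr83, a G protein-coupled receptor found on mouse regulatory T cells, had a log2 ratio of 0.67 ± 0.06 (0.62 and 0.71), or 1.59-fold, and was not called. Its probe (chromosome 9, 14673871 to 14673930) was dim, with mean signals of 140 in KO and 82.0 in WT with KO in Cy5 and of 104 in KO and 89.3 in WT with KO in Cy3. The KO signal lay above the WT signal on both arrays. The call changed with the processing, since the ratio was 1.23 with an offset of 1 and 1.48 with the processed signals, both past 2-fold on each array.

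The ectoenzymes CD39 and CD73 were called neither. Entpd1, which encodes CD39 (chromosome 19, 40816008 to 40816067), was well above background for WT RNA on both arrays and for KO RNA on neither. Mean signals were 59.7 in KO and 79.4 in WT with KO in Cy5, and 66.1 in KO and 110 in WT with KO in Cy3. The log2 ratio was −0.29 ± 0.02 (−0.28 and −0.30), with a KO value that was not well above background. With the processed signals Entpd1 was called lower, at −1.50, and with centring on the measured genes the arrays had opposite signs (−0.39 and 0.55), and its direction was not settled.

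Nt5e, which encodes CD73 (chromosome 9, 88266616 to 88266675), read 11.49 in KO and 11.00 in WT with KO in Cy5, and 11.82 in KO and 11.11 in WT with KO in Cy3. The log2 ratio was 0.60 ± 0.15 (0.49 and 0.70), or 1.51-fold. The raw signals were 3264 in KO and 1834 in WT with KO in Cy5 but 1935 in KO and 3945 in WT with KO in Cy3, again in opposite orders. With centring on all spots the arrays disagreed in sign, at 0.67 and −0.66. Of 22 other genes of extracellular nucleotides and adenosine, 16 were measured, 1 was higher and 3 were lower, with a median of −0.45. P2rx4, an ATP-gated channel, was higher, at 1.55. Adora2a, an adenosine receptor of T cells, was lower at −1.48, Dpp4, a surface peptidase, at −1.45, and P2rx7, another ATP-gated channel, at −1.14; the median over the P2rx7 probes was −0.41. Ada, adenosine deaminase, stood at −1.04 and missed the rule on 1 array, with −1.16 and −0.93.

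**Figure D3:**
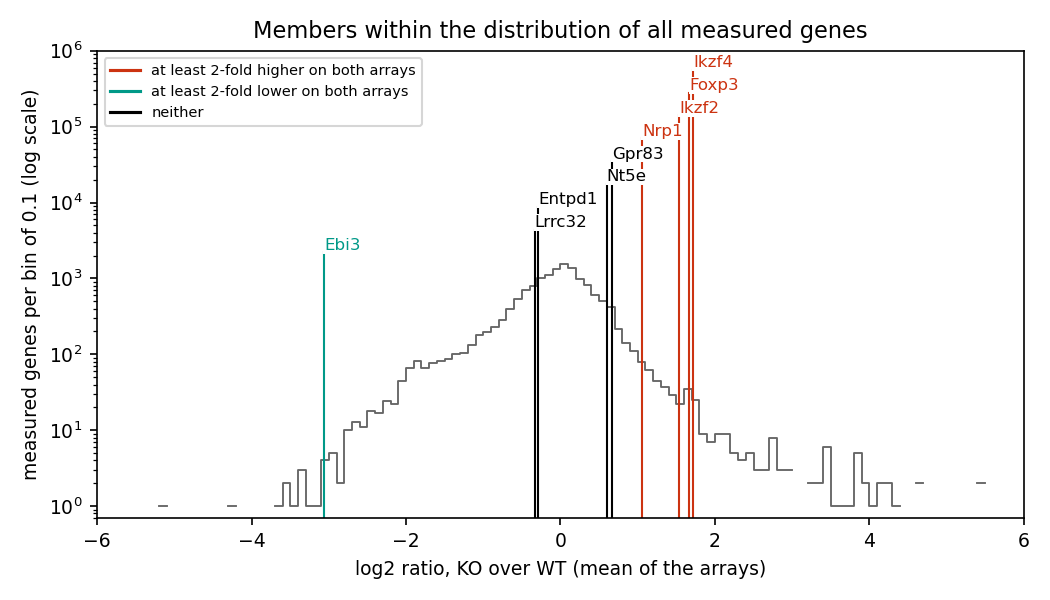
Number of measured genes (vertical axis, log scale) per bin of 0.1 in the mean log2 ratio KO over WT (horizontal axis), with a vertical line for each of the 9 genes, coloured by call; the height of a line has no meaning. Ikzf4, Foxp3, Ikzf2 and Nrp1 stand in the right flank at 1.05 to 1.72, and Ebi3 stands in the left tail at −3.06.

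Other genes typical of regulatory T cells went both ways. Of 21 surface and effector genes, the 9 left out, 16 were measured, 4 were higher and 2 were lower, with a median of −0.05 beside −0.02 over all measured genes. The higher ones were Itgae, the integrin chain CD103, at 4.20 ± 0.08, the chemokine receptor gene Ccr8 at 1.48, Tnfrsf1b, which encodes TNF receptor 2, at 1.14 and Fgl2, a secreted fibrinogen-like protein, at 1.12. The lower ones were Ctla4, an inhibitory receptor, at −1.60 ± 0.34 and Tnfrsf18, which encodes GITR, at −1.28 ± 0.06. Il10, Tigit, Klrg1, Il1rl1 and Areg were not well above background.

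The list of Foxp3 induction and partner factors has 30 genes and does not separate those that favour Foxp3 from those that oppose it. Of these, 27 were measured, 1 was higher and 3 were lower, with a median of −0.02. Stat5a, which carries the IL-2 signal to the Foxp3 locus, was higher, at 1.73 (1.73 on each array). The lower ones were Uhrf1 at −2.18 and Dnmt1 at −1.43, which together maintain DNA methylation through cell division, and Batf, a factor of activated T cells, at −1.23. Of 12 genes that are lower in regulatory than in conventional T cells, 9 were measured, 0 were higher and 2 were lower, with a median of −0.29. These were Pde3b, a phosphodiesterase, at −1.59 and Il7r, the IL-7 receptor, at −1.02. With centring on all spots, Ccr8, Tnfrsf1b, Fgl2, Tnfrsf18, Stat5a, Il7r, Furin, P2rx4 and P2rx7 no longer passed the rule.

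**Figure D4:**
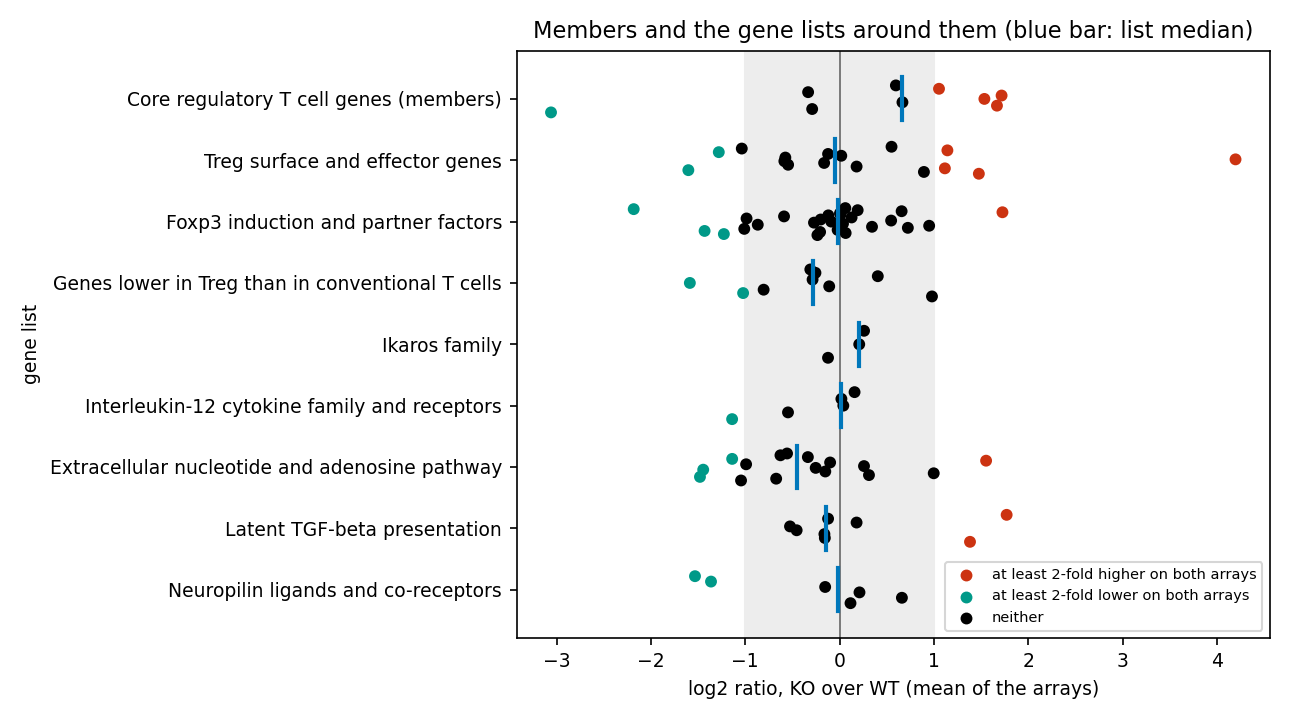
Mean log2 ratio KO over WT (horizontal axis) of the 9 genes (top row) and of the measured genes of each list (other rows, the 9 genes left out); points are genes coloured by call, blue bars are list medians, vertical spread within a row has no meaning, and the grey band marks less than 2-fold. Points fall on both sides of the band in the top row and in the rows for surface and effector genes, Foxp3 induction and partner factors, and nucleotides.

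Markers of cell types moved as well. Of 11 CD4 T cell markers all were measured, 0 were higher and 4 were lower, with a median of −0.79. The lower ones were Trat1, an adaptor of the T cell receptor, at −2.69, the coreceptor gene Cd4 at −1.18, Cd5, a brake on receptor signalling, at −1.12, and Zbtb7b (ThPOK), at −1.03. The normalized signals of the list, summed over its different probes, came to 98475 in KO and 124628 in WT. Such sums, here and below, include the offset of 50 added to every signal before normalization, which weighs most for dim probes. Of the 7 called neither, Cd3e and Thy1 stood at 0.09, Lck at 0.16 and Cd28 at 0.04. Cd3d stood at −0.79, Cd3g at −0.49 and Cd2 at −0.89. The list also holds genes shared with other T cells, the CD3 chains among them. All 11 were well above background in both RNAs, as the labelled cell type has them. Cd5 and Zbtb7b no longer passed the rule with centring on all spots or with an offset of 1, nor did Zbtb7b with the processed signals, and the median over the Cd4 probes, −0.99, was short of it.

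Of 11 markers of CD8 T, NK and γδ T cells, 9 were measured, 5 were higher and 0 lower, with a median of 1.25. It was 1.12 when the genes not well above background in WT RNA had their WT level held to a floor, described below. Klrb1c, Klra8 and Tyrobp counted as measured through KO RNA alone. With both RNAs required to be well above background, 2 of 6 were higher and the median was 0.71, and with no filter on dim probes the median was 0.75. The NK receptor genes Klrc1 and Klrd1 stood at 1.80 and 1.78, and Klrd1 no longer passed the rule with centring on all spots. WT RNA gave no signal well above background for Tyrobp, Klra8 and Klrb1c, so their WT level was set no lower than a floor. The floor was the lowest level of any spot well above background in WT RNA on that array. In this processing, averaged over the arrays, Tyrobp was then 4.30-fold, Klra8 2.26-fold and Klrb1c 2.18-fold higher in KO. These folds are not lower bounds, since a WT level above the floor is possible. They do not hold for each array, as Tyrobp had a log2 ratio of 2.02 with KO in Cy5, below its floored value. The summed signal was 2744 in KO and 1246 in WT. The other measured markers were called neither in the main processing, with Cd8a at 0.67, Cd8b1 at −0.55, Eomes at 0.75 and Sox13 at 0.02. Over the settings tried, Cd8a ranged from 0.56 to 1.46 and Eomes from 0.44 to 1.12. With the processed signals 6 of the 9 measured markers were higher, with a median of 2.18. An offset of 1 also gave 6 higher, with a median of 2.03. Ncr1 and Zbtb16 were not well above background.

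Of 11 myeloid and dendritic cell markers, 5 were measured and 1 was higher, Fcer1g, the Fc receptor signalling chain, at 4.35, and 0 were lower, with a median of 0.70. Lyz2, at 0.62, counted as measured through KO RNA alone, and Csf1r stood at 0.40. With both RNAs required to be well above background, 4 were measured, 1 was higher and the median was 0.76. With the processed signals 2 were higher. The summed signal was 35760 in KO and 19138 in WT, and most of it came from the bright probes of Siglech and Itgam, both called neither, at 0.82 and 0.70, while Itgax, Cd14, Adgre1, Flt3, Zbtb46 and Xcr1 were not well above background. Of 7 B cell markers only Cd79b was measured, at 0.62 (summed signal 200 in KO and 130 in WT). Of 6 endothelial and stromal markers 3 were measured and 0 were called, with a median of 0.02 (1142 in KO and 1072 in WT). The part of these other cell types in the results was likewise not tested.

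**Figure D5:**
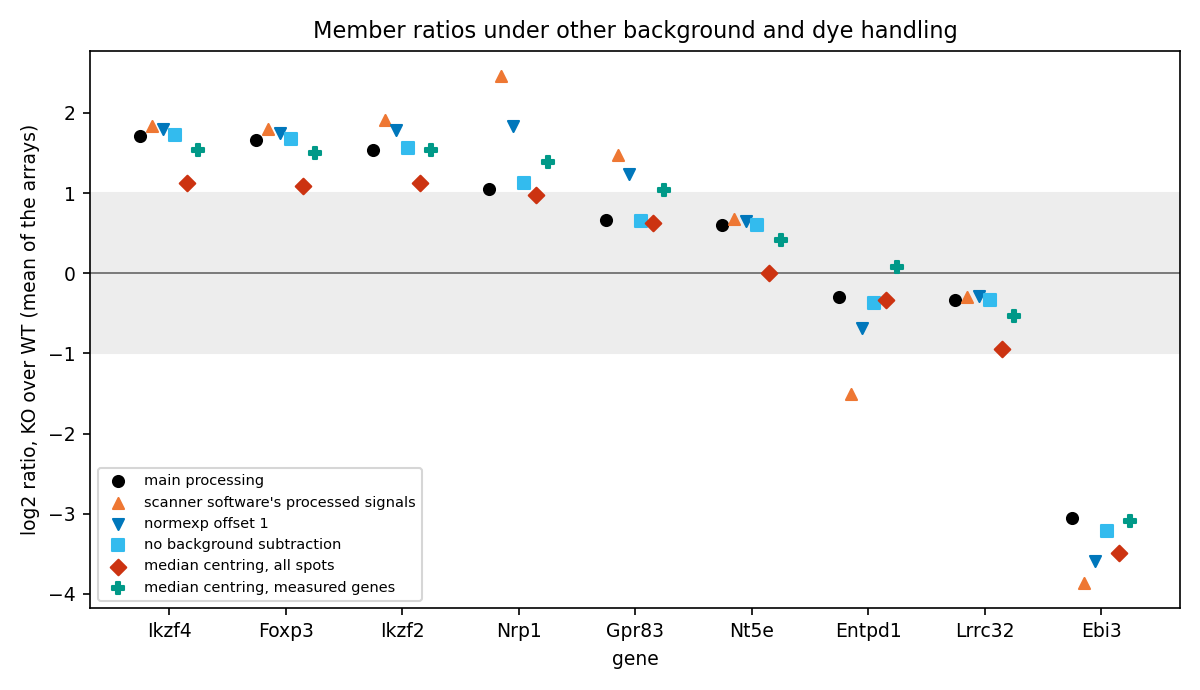
Mean log2 ratio KO over WT (vertical axis) of each of the 9 genes (horizontal axis) in the main processing and under 5 other ways of handling background and dyes (symbols); the grey band marks less than 2-fold. Ebi3 stays between −3.86 and −3.06 in these, while centring on all spots places Foxp3 at 1.09 and Nt5e at 0.00.

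Promoter sequences, the 250 bases before a transcript start, came from RefSeq's table for the assembly GRCm38.p6, which held 8 promoters of 6 of the 9 genes; Ikzf2, Ikzf4 and Lrrc32 had no entry. The promoters of Foxp3, from its 2 starts, and of Ebi3 are shown because these genes were called in opposite directions. Capitals mark matches to 8 motifs searched on both strands: GGAAA (NFAT), TGTGGT (RUNX), GTAAACA (FOXO), TTCNNNGAA (STAT), CAGACA (SMAD), TGACGTCA (CREB), CACGTG (TFE) and TGATGNAA (ATF4). All 3 lie on the plus strand and run 5′ to 3′.
Foxp3, chrX:7579426-7579675: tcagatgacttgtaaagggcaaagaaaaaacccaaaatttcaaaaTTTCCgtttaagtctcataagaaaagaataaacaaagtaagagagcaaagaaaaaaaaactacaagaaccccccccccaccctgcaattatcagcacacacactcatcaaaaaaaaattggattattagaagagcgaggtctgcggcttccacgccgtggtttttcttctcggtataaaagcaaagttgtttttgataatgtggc
Foxp3, chrX:7580233-7580482: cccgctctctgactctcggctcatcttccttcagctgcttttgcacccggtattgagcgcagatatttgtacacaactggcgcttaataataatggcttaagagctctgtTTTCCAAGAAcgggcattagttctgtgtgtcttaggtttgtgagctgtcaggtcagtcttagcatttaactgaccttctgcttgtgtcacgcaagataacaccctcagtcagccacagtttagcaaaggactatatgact
Ebi3, chr17:55952373-55952622: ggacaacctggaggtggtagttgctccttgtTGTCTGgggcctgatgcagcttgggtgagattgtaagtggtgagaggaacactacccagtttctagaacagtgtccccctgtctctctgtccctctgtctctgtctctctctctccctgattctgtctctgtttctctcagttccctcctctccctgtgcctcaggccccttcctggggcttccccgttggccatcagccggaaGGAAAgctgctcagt

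The first Foxp3 promoter held 1 NFAT match, and the second held 1 NFAT match that overlaps 1 STAT match. The Ebi3 promoter held 1 SMAD match and 1 NFAT match. The NFAT letters also occurred in the Nrp1 promoter and in the second of the Entpd1 promoters, and the SMAD letters in those of Gpr83 and Nt5e. Among all 32851 promoters in the table, 55.6% held the NFAT motif, 17.1% the SMAD motif and 7.02% the STAT motif. The letters of RUNX (14% of all promoters), FOXO (3.17%), CREB (1.55%), TFE (6.02%) and ATF4 (3.45%) were in none of the 8 windows.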

How the data were processed

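RNA of KO and WT cells was measured on 2 two-colour Agilent whole mouse genome arrays with exchanged dyes, counted as 1 replicate. Per the file headers, spot mean intensity and the median intensity of the local background were deposited uncorrected. The processed intensity there is the software's background-subtracted, dye-normalized signal, per the file headers. The log10 ratios (Cy5 over Cy3) in the deposited series matrix equalled those in the scanner files. The headers name Agilent Feature Extraction 10.7.3.1 and the submitters' processing notes 10.5.1.1.

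Here, limma 3.58.1 (R 4.3.3, data.table version 1.17.8) was used for normexp background correction of mean signals, offset 50, then for loess within arrays. Control spots had weight 0 in loess. The 206 and 214 outlier spots were left out, a probe's spots were averaged, and every ratio was set as KO over WT from the labelled dyes and averaged over the arrays. Levels per channel were taken after loess and Aquantile. The brightest measured probe stood for a gene in counts. The steps were tested on simulated data with as many changes planted up as down, in bright spots only. That test did not cover dim probes or the choice between loess and centring. Probes were named by accession through RefSeq's GRCm38.p6 gene list (26055 of 39429; 3195 by symbol, 930 by synonym, 9249 by the file's name), and positions are the files', in mm9. Plots used Python 3.11.15 and matplotlib 3.10.9.

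No test was made, since each genotype had 1 extract, which limits what the values say about KO and WT cells. The number of arrays limits technical precision only. The members, the gene lists and the rule for naming genes were chosen with earlier results of these data known. Named were all 9 genes, the called genes of each list (at most 6 per direction), the Ikaros relatives, Il27, Il12a, Tgfb1, Nrros, Itgb8, Adora2a, Ada and Lamtor1. Genes and markers named beyond these were chosen after their values were seen. Alternatives covered background, normalization, filters, probes, threshold and each array alone.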

Additional observations from a re-analysis of the deposited data

How the results depend on the processing

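All listed alternatives were run. The count of the 9 genes called higher was 4 and fell to 0 with centring on all spots. The count called lower was 1 and became 2 with the processed signals and with the series matrix, which added Entpd1. Over all measured genes, 366 were higher and 1024 lower. With the processed signals, and likewise with the series matrix, 870 were higher and 1617 lower. An offset of 1 gave 609 higher, centring on all spots 111, the array with KO in Cy5 alone 556, and a threshold of 1.5-fold 1009 higher and 2008 lower. The other 40 counts stayed within 1.5 times the main one. Of the list medians under alternatives 50 moved by over the median technical SD and 106 did not. Of the single-gene ratios, each array alone left out because its distance from the mean of both is always under their SD, 42 moved by over 1 technical SD, 20 moved by less, and 37 were not touched by the setting. No called value changed sign. Among the 9 genes the ranges over settings were widest for Nrp1 (0.98 to 2.46) and Entpd1 (−1.50 to 0.08), both dim. No paired analysis was possible because both arrays carry the same pair of RNA extracts.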

Other observations

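Several genes of the lists stood beside the rule of 2-fold on each array and were named after their values were seen. Ezh2, a histone methyltransferase, had log2 ratios KO over WT of −0.76 (KO in Cy5) and −1.26 (KO in Cy3). Tnfrsf4, which encodes the costimulatory receptor OX40, had −0.905 and −1.17. Gata3, a transcription factor of type 2 helper T cells, had 0.70 and 1.20, and Ifng, the cytokine of type 1 helper T cells, had 0.92 and 1.04. Tnfrsf9, the costimulatory receptor gene for 4-1BB, differed most between the arrays among the measured surface and effector genes, at 0.99 and 0.11.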
